A study of Homo sapiens with 5 samples.

Results

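The mRNA levels of the hnRNP and SR splicing factor genes were examined by RNA-seq in RPE1 cells treated with doxorubicin. Members were the rows of the count table with an HNRNP or SRSF symbol, without pseudogenes and antisense rows, together with CLK1 to CLK4, TRA2A and TRA2B. The rule found 43 of the 26485 genes in the table, namely 25 hnRNP genes, 12 SRSF genes and 6 CLK and TRA2 genes. Membership was set by symbol and not by a measured value, though the list was chosen with earlier results of these data known. A further 4 pseudogene rows were left out.

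RPE1, labelled wild type in every sample, is an established human cell line derived from the pigment epithelium of the retina. The study set 2 DMSO libraries against 2 libraries from cells given 0.2 μM doxorubicin and 1 from cells given 0.34 μM doxorubicin, all after 18 h. Doxorubicin intercalates into DNA and poisons topoisomerase 2, and DMSO was the vehicle. The methods of the study call the libraries of each treatment biological replicates, the labels name no cultures or dates, and the 0.34 μM condition has no replicate of its own. Doses of 200 and 340 μM stand in the treatment notes, whereas the sample titles, which are followed here, give 0.2 and 0.34 μM.

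Pre-mRNA splicing is steered by RNA-binding proteins that mark exons and introns for the spliceosome. The hnRNP proteins coat nascent transcripts and often silence exons, whereas SR proteins carry a domain rich in arginine and serine, bind exonic enhancers and often promote inclusion. The CLK kinases phosphorylate SR proteins in the nucleus, and TRA2A and TRA2B are SR-like activators of exons. Many of these genes adjust their own mRNA through exons that send the transcript to nonsense-mediated decay.

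The counts on genes summed to between 23773061 and 36725345 per library. CPM values are counts scaled to library size (counts per 1e6) after TMM normalization. Of 43 members, 38 passed the filter on low counts, comprising 21 hnRNP, 11 SRSF and all 6 CLK and TRA2 genes. HNRNPCL1, HNRNPCL2, HNRNPCL3, HNRNPCL4 and SRSF12 had between 0 and 8 counts in each library and were not tested. The treatment was visible in the p53 target CDKN1A, which rose from 276 ± 26.1 CPM (SD, n = 2) to 2900 ± 500.4 CPM (SD, n = 3). TOP2A, a topoisomerase of dividing cells, fell to 14.9% of its DMSO level. Of 11 pigment epithelium markers, 7 were under 1 CPM in all libraries, RPE65 and TYR among them, while MITF and OTX2 were present. The remaining markers were low and higher after treatment. BEST1 was at 0.992 and 0.548 CPM in DMSO and at 3.33, 1.25 and 3.91 CPM after doxorubicin. PMEL was at 0.267 and 0.196 CPM in DMSO and at 0.851, 1.33 and 1.27 CPM after doxorubicin. Of 5 blood markers, 3 were under 1 CPM in all libraries, CD3E and HBB at 0, while CD68, a lysosomal protein also made outside blood, was at 76.5 to 108 CPM. PTPRC, the defining marker, was at 0.191 and 0.274 CPM in DMSO and at 0.967, 2.20 and 1.98 CPM after doxorubicin, and the summed level of the list was 91.2 to 100.5 CPM in DMSO and 78.5 to 110.5 CPM after doxorubicin. The part of such cells in the results was not tested. The 0.34 μM library lay close to the first 0.2 μM library. Their member levels differed by a median of 0.068 on the log2 scale, against 0.25 between the 0.2 μM libraries and 0.29 between the DMSO libraries. A chi-square of their counts over all genes tested was 8.98 per degree of freedom. It was 73.5 between the 0.2 μM libraries and 112.9 between the DMSO libraries. The 0.34 μM and the first 0.2 μM library thus differed by more than sampling noise and were kept as separate libraries. Such a difference cannot show that they came from separate cultures.

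The question of the main comparison was which of these genes changed after doxorubicin, with the 3 doxorubicin libraries taken as 1 group. HNRNPA2B1, HNRNPD and TRA2B fell, each to between 40.0% and 43.7% of its DMSO level. These 3 of 38 members passed an adjusted p of 0.01 as lower and none passed as higher, where 2.73% of all 14187 genes tested passed as lower and 1.29% as higher. No member had a positive log2 fold change with an unadjusted p under 0.05 in edgeR, against 2159 of all 14187 genes tested. Adjusted p-values are those of edgeR's quasi-likelihood test with the Benjamini-Hochberg correction over all genes tested. The promoters of the 3 genes that fell are printed here beside those of SRSF5 and CLK1, which did not pass in either direction, so that they can be read against each other. Each run is the 150 bases before the gene's first transcript start in RefSeq on GRCh38.p14, 5′ to 3′ on the strand of the gene, and capitals mark the motifs defined further on.

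TRA2B: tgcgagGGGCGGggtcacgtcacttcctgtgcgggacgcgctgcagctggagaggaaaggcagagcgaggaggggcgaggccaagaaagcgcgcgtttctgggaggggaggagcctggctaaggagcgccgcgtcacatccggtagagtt
HNRNPA2B1: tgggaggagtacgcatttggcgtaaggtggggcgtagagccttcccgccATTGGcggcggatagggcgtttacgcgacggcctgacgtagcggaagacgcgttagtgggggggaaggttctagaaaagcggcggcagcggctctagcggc
HNRNPD: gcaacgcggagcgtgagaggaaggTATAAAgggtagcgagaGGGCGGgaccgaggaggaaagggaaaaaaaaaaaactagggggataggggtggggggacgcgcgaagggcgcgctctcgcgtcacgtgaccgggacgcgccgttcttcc
SRSF5: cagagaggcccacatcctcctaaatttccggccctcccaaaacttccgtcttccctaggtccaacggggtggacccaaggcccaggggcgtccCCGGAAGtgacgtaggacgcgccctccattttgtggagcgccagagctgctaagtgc
CLK1: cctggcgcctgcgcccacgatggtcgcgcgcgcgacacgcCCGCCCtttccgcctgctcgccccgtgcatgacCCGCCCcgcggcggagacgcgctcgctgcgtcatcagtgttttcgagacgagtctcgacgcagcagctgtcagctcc

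The runs lie at chr3:185938015-185938164 on the minus strand for TRA2B, chr7:26200747-26200896 on the minus strand for HNRNPA2B1 and chr4:82373992-82374141 on the minus strand for HNRNPD. That of SRSF5 lies at chr14:69766992-69767141 on the plus strand and that of CLK1 at chr2:200864659-200864808 on the minus strand. Their GC content was between 62.0% and 72.0%. The sequence of HNRNPA2B1 holds a CCAAT box read on the other strand, and that of HNRNPD a TATA box and a GC box. That of TRA2B holds 1 GC box, that of SRSF5 an ETS sequence and that of CLK1 a pair of GC boxes. The longer windows searched further on also held an E2F-type sequence for TRA2B, an ETS sequence for HNRNPD and a CHR element for CLK1. The printed runs therefore do not show every match of these genes.

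HNRNPA2B1, which encodes a core protein of the hnRNP particle and an N6-methyladenosine reader, was at 1514 and 1284 CPM in DMSO. It was at 539 and 649 CPM in the 0.2 μM libraries and at 492 CPM in the 0.34 μM library. All doxorubicin libraries thus lay far below both DMSO libraries. The mean went from 1399 ± 162 CPM (SD, n = 2) to 559.7 ± 80.6 CPM (SD, n = 3), a log2 fold change of -1.32 (SE 0.18, edgeR quasi-likelihood adjusted p = 0.00711). The gene spans chr7:26189927-26200746 and overlaps no other annotated gene. In DMSO it had the highest level per length of all hnRNP genes, 386 CPM per kb of its canonical transcript, and after doxorubicin it was at 154 CPM per kb, below HNRNPA1, HNRNPK and HNRNPC.

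HNRNPD encodes AUF1, a protein that binds AU-rich elements and governs mRNA decay. It was at 451 and 384 CPM in DMSO, at 167 and 185 CPM at 0.2 μM and at 157 CPM at 0.34 μM. The groups did not overlap, and the log2 fold change was -1.30 (SE 0.16, edgeR quasi-likelihood adjusted p = 0.00422). TRA2B, at chr3:185914558-185938014, was at 159 and 165 CPM in DMSO and at 67.8, 78.8 and 65.7 CPM after doxorubicin. Its DMSO libraries were closely spaced and its log2 fold change was -1.20 (SE 0.14, edgeR quasi-likelihood adjusted p = 0.00422). With each library left out in turn, none of the 3 genes kept an adjusted p under 0.01 in edgeR's quasi-likelihood test, and the largest adjusted p was 0.0393 for HNRNPA2B1, 0.0293 for HNRNPD and 0.0313 for TRA2B. Their log2 fold changes then ranged from -1.45 to -1.14.

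A larger number of members lay below DMSO without passing that threshold. Fold changes were below 0 on the log2 scale in 31 of 38 members, against 48.9% of all genes tested, and their median was -0.54, against 0.013 over all genes. Members with a higher mean DMSO CPM tended to have lower log2 fold changes (Spearman rho -0.68, n = 38). The DMSO level enters both quantities, which can by itself pull rho below 0, and the families were pooled. No rho over all genes is given here to set beside it. The genes of the whole table were not matched to the members by level. All 3 doxorubicin libraries lay below both DMSO libraries in 23 members, or 60.5%, against 23.4% of all genes, and above both in 2 members, against 24.3%. Over the 89 other splicing genes tested, described further on, these shares were 61.8% and 6.74%, so the pattern was not particular to the members. With the adjusted p threshold at 0.05 in edgeR, 16 members were called lower, against 7.48% of all genes. DESeq2, the tool of the study, also called 16 members lower and 0 higher at 0.01, against 7.85% and 6.46% of the genes. In bulk RNA, less mRNA per cell and fewer cells of a kind, such as cells in one phase of the cycle, cannot be told apart.

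**Figure D1:**
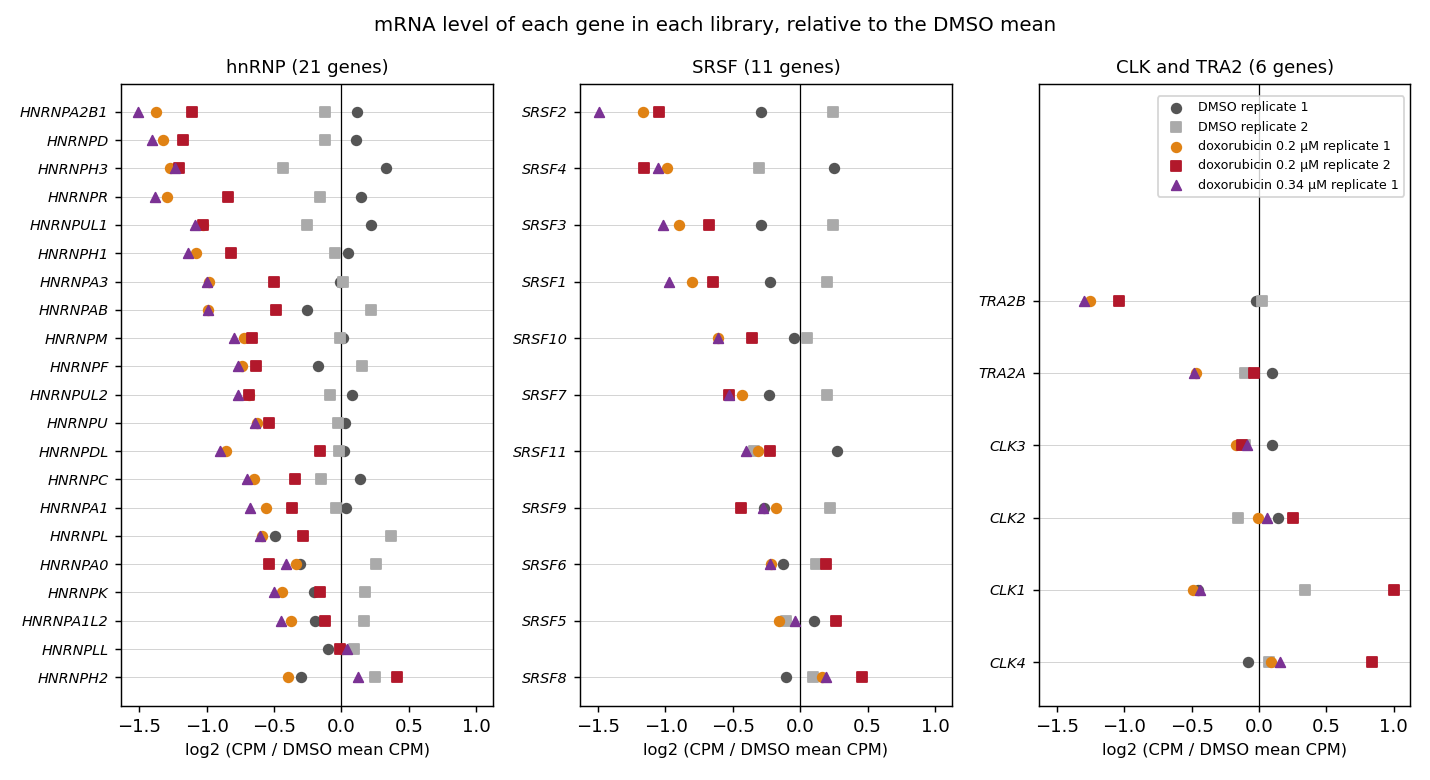
Level of each of the 38 members tested in each library, as the log2 ratio of its CPM to the mean CPM of the 2 DMSO libraries, with genes ordered by fold change within each family. Grey points are DMSO and coloured points are doxorubicin, and in 23 members, led by HNRNPA2B1 and HNRNPD, every coloured point lies left of both grey points.

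Among the member families, the hnRNP genes had the largest share below DMSO. Of 21 tested, 19 had a log2 fold change below 0, 2 passed at 0.01 and 11 at 0.05 in edgeR, all lower, against 2.73% and 7.48% of all genes. The groups did not overlap in 16, all of them lower, against 23.4% of all genes. The median log2 fold change of the family was -0.71, a median fold of 1.64 in favour of DMSO. The family as a whole, summed over its 25 rows, took 0.969% and 0.979% of all counts in the DMSO libraries. It took 0.528% and 0.643% at 0.2 μM and 0.511% at 0.34 μM. The mean share thus went from 0.974% ± 0.00696 (SD, n = 2) to 0.561% ± 0.0718 (SD, n = 3).

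The A and B group, which forms the core of the particle, was not even in its change. HNRNPA1, a shuttling protein that silences exons, was at 1329 and 1262 CPM in DMSO and at 879, 1007 and 809 CPM after doxorubicin. The doxorubicin libraries all lay below DMSO, with a log2 fold change of -0.53 (SE 0.17, edgeR quasi-likelihood adjusted p = 0.0808). Part of the counts of HNRNPA1 and of the near-identical HNRNPA1L2 may have been shared with a pseudogene row, HNRNPA1P10, which held between 2641 and 3911 counts a library. HNRNPA3 had a log2 fold change of -0.81 and HNRNPAB one of -0.80, with edgeR quasi-likelihood adjusted p-values of 0.0403 and 0.0617. HNRNPA0 was at 135 and 200.3 CPM in DMSO and at 133, 116 and 126 CPM after doxorubicin, so that the lower DMSO library lay close to the treated ones.

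Within each library the ratio of HNRNPA2B1 to HNRNPA1 counts does not depend on scaling. The ratio was 1.14 and 1.02 in DMSO and 0.613, 0.644 and 0.608 after doxorubicin. HNRNPA2B1 made up 15.3% and 13.7% of the counts of the hnRNP family in DMSO and 9.95%, 10.2% and 9.51% after doxorubicin. The share of HNRNPA1 was 13.5% in both DMSO libraries and between 15.6% and 16.2% after doxorubicin. HNRNPA2B1 was thus the gene with the most counts of the family in DMSO, and HNRNPA1 was the one with the most after treatment.

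Of the relatives of HNRNPD, HNRNPDL was at 301 and 293 CPM in DMSO and at 164, 266 and 159 CPM after doxorubicin. The second 0.2 μM library stood apart from the other two treated libraries in this gene, and the log2 fold change was -0.60 (SE 0.25, edgeR quasi-likelihood adjusted p = 0.159). The count ratio of HNRNPD to HNRNPDL was 1.5 and 1.31 in DMSO and 1.02, 0.696 and 0.987 after doxorubicin, with no overlap. The ratio of HNRNPD to HNRNPAB overlapped between the groups, with 2.55 and 1.56 in DMSO and 1.57, 1.23 and 1.48 after doxorubicin.

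The H and F group binds runs of G. HNRNPH3 was at 377 and 221 CPM in DMSO and at 124, 130 and 127 CPM after doxorubicin. The treated libraries were nearly equal while the DMSO libraries lay wide apart, and the log2 fold change of -1.24 (SE 0.23) had an edgeR quasi-likelihood adjusted p of 0.0173. HNRNPH1 was at 365 and 341 CPM in DMSO and at 167, 199.6 and 160.2 CPM after doxorubicin, a log2 fold change of -1.01 (SE 0.16) that stood just outside the threshold with an edgeR quasi-likelihood adjusted p of 0.0105. HNRNPF had a log2 fold change of -0.71. HNRNPH2, an X-linked gene that shares an annotated read-through transcript with RPL36A, was at 2.78 to 4.86 CPM in all libraries and its groups overlapped.

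HNRNPU, which encodes scaffold attachment factor A, was at 814 and 784 CPM in DMSO and at 518, 551 and 511 CPM after doxorubicin. HNRNPUL1, a relative with a part in the DNA damage response, was at 929 and 669.5 CPM in DMSO and at 391, 393 and 375 CPM after doxorubicin. In both genes every treated library lay below DMSO, with log2 fold changes of -0.60 and -1.05 and edgeR quasi-likelihood adjusted p-values of 0.0394 and 0.0143. HNRNPUL2 had a log2 fold change of -0.71. HNRNPR, a close relative of SYNCRIP, was at 445 and 361 CPM in DMSO and at 164, 225 and 154 CPM after doxorubicin, a log2 fold change of -1.15 (SE 0.21, edgeR quasi-likelihood adjusted p = 0.0167). HNRNPM, whose DMSO libraries were at 371 and 366 CPM, was at 224, 232 and 212 CPM after doxorubicin.

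HNRNPK, a poly-C binding protein and cofactor of p53, was at 659 and 858 CPM in DMSO and at 559, 681 and 537 CPM after doxorubicin. Its groups overlapped, and the log2 fold change was -0.36 (SE 0.19, edgeR quasi-likelihood adjusted p = 0.263). HNRNPC, which binds runs of U, had a log2 fold change of -0.56 (edgeR quasi-likelihood adjusted p = 0.0933), and its groups did not overlap. HNRNPL was at 209 and 379 CPM in DMSO and at 196, 242 and 194 CPM after doxorubicin, so that the spread between the DMSO libraries was larger than the difference between the groups. HNRNPLL, its relative known from T cells, was at 39.4 to 45.2 CPM in all libraries, with a log2 fold change of 0.013. The gene order by level per length in DMSO was led by HNRNPA2B1 at 386, HNRNPA1 at 346, HNRNPK at 263 and HNRNPC at 257 CPM per kb.

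**Figure D2:**
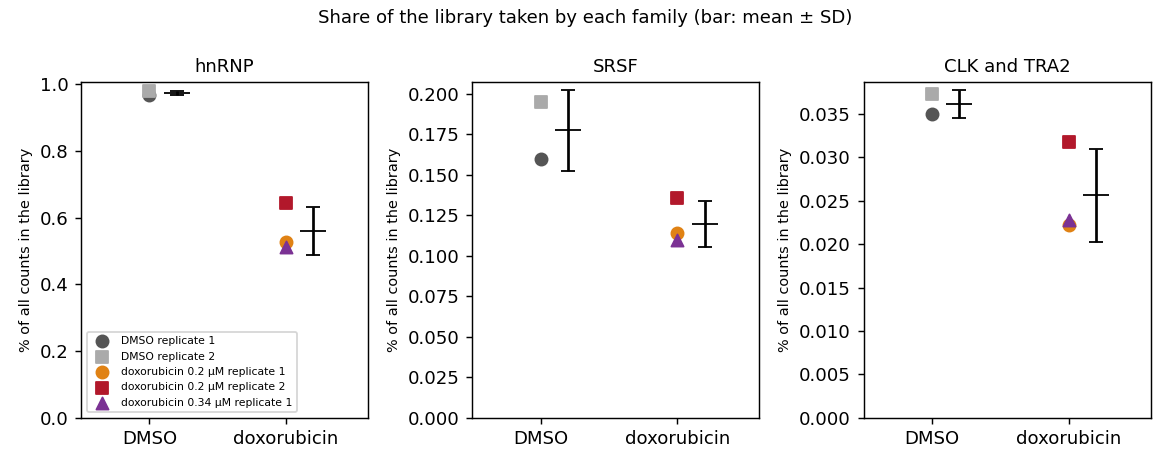
Share of all counts in each library (in %) taken by the hnRNP, SRSF and CLK and TRA2 genes, with 2 DMSO and 3 doxorubicin libraries as points and the mean ± SD beside them. The hnRNP share lies between 0.511% and 0.643% in the doxorubicin libraries, below 0.969% and 0.979% in DMSO. Each family has its own axis from 0, and TRA2B makes up most of the difference in the CLK and TRA2 panel.

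The SRSF genes split into members below DMSO and members at its level. None of the 11 tested passed the threshold of 0.01 in edgeR, 6 had an unadjusted p under 0.05, 4 passed at 0.05 and the same number passed at 0.01 in DESeq2, all lower. Of all genes, 15.6%, 7.48% and 7.85% were lower by these 3 measures. The log2 fold change was below 0 in 9, with a median of -0.50. The groups did not overlap in 6 members that were lower and in 1 that was higher, against 23.4% and 24.3% of all genes. The family took 0.160% and 0.195% of all counts in DMSO and 0.114%, 0.136% and 0.110% after doxorubicin.

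SRSF2, also known as SC35, had the highest level per length of the family in DMSO, 120.3 CPM per kb. It was at 186 and 269 CPM in DMSO and at 101, 110 and 80.7 CPM after doxorubicin. All treated libraries lay below DMSO, with a log2 fold change of -1.22 (SE 0.21, edgeR quasi-likelihood adjusted p = 0.0145). SRSF2 overlaps MFSD11, so reads could be counted to either gene, and MFSD11 itself was at 12.7 to 18.3 CPM with overlapping groups. SRSF4 was at 139 and 94.5 CPM in DMSO and at 59.0, 52.3 and 56.0 CPM after doxorubicin, a log2 fold change of -1.07 (SE 0.19, edgeR quasi-likelihood adjusted p = 0.0155). SRSF1, the founding member of the family, was at 299 and 401 CPM in DMSO and at 201, 224 and 178 CPM after doxorubicin, a log2 fold change of -0.80 (SE 0.19, edgeR quasi-likelihood adjusted p = 0.0366). SRSF3, the smallest SR protein, was at 197 and 285 CPM in DMSO and at 129, 151 and 119 CPM after doxorubicin. In these 4 genes the DMSO libraries lay well apart from each other, and both lay above every treated library.

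SRSF5 and SRSF6, both close relatives of SRSF4, showed no such difference. SRSF5 was at 160.4 and 139 CPM in DMSO and at 134, 179.6 and 145 CPM after doxorubicin, a log2 fold change of 0.032 (SE 0.18, edgeR quasi-likelihood adjusted p = 0.923). SRSF6 was at 213 and 252 CPM in DMSO and at 199.6, 265 and 199 CPM after doxorubicin, a log2 fold change of -0.072. In both genes the second 0.2 μM library was the highest of all 5. The count ratio of SRSF4 to SRSF5 was 0.867 and 0.680 in DMSO and 0.440, 0.292 and 0.385 after doxorubicin.

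SRSF8, a retroposed relative of SRSF2, was at 35.2 and 40.5 CPM in DMSO and at 42.3, 51.9 and 43.2 CPM after doxorubicin. All treated libraries lay above DMSO, and the log2 fold change was 0.27 (SE 0.17, edgeR quasi-likelihood adjusted p = 0.323). The count ratio of SRSF2 to SRSF8 was 5.27 and 6.63 in DMSO and 2.38, 2.12 and 1.87 after doxorubicin. That was the widest shift of the 15 ratios of related genes compared, -1.48 on the log2 scale. SRSF7, SRSF9, SRSF10 and SRSF11 had log2 fold changes of -0.50, -0.29, -0.52 and -0.31, and the groups overlapped in SRSF9 and SRSF11.

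**Figure D3:**
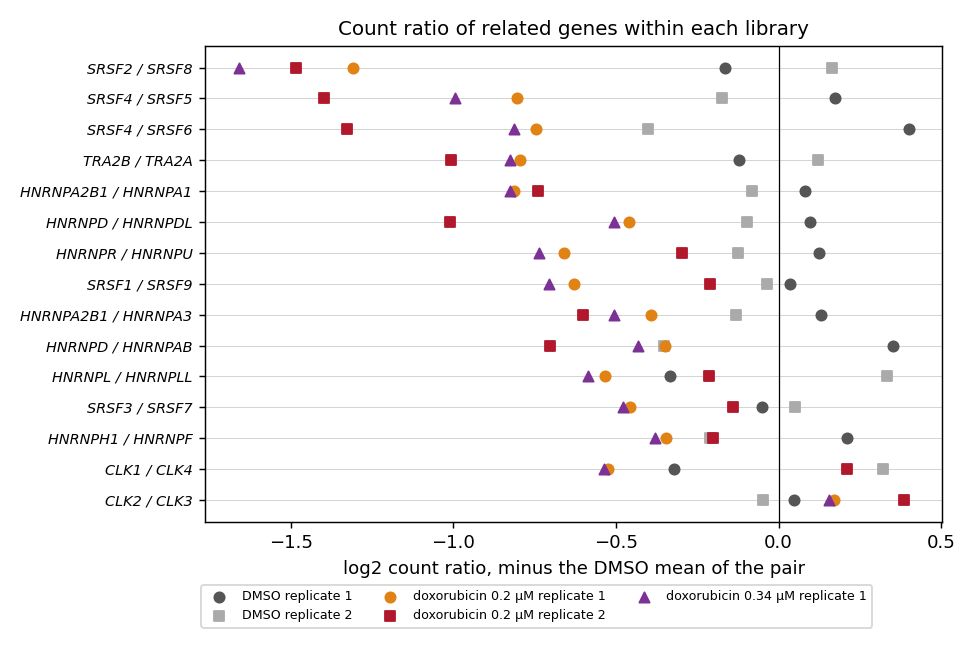
Count ratio of 15 pairs of related genes in each library, as the log2 ratio minus the mean of the 2 DMSO libraries for that pair. The groups do not overlap in 11 pairs, with SRSF2 over SRSF8 shifted by -1.48 and SRSF3 over SRSF7 by -0.36. The direction depends on which gene of a pair was placed on top.

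The ratios of related genes within a library were compared because they do not depend on how libraries are scaled. The groups did not overlap in 11 of 15 pairs and overlapped in 4. The pairs and the gene placed on top were chosen with earlier results known, and pairs share genes, so neither this count nor the direction of the ratios is independent evidence. With 3 against 2 libraries an exact permutation test cannot give a two-sided p below 0.1, so no ratio could pass 0.05. The ratio of TRA2B to TRA2A was 1.98 and 2.34 in DMSO and 1.24, 1.07 and 1.21 after doxorubicin.

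Among the kinases and the TRA2 proteins, TRA2B was the only one of the 6 genes called in edgeR. TRA2A was at 80.7 and 70.4 CPM in DMSO and at 54.7, 73.7 and 54.2 CPM after doxorubicin, a log2 fold change of -0.31 (SE 0.19, edgeR quasi-likelihood adjusted p = 0.307). The second 0.2 μM library lay between the DMSO libraries. The family of 6 had 3 log2 fold changes below 0 and 3 above, with a median of -0.011. Their summed level went from 357 to 258 CPM on average, of which TRA2B alone went from 162 to 70.8 CPM.

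CLK1 was at 24.0 and 41.7 CPM in DMSO, at 23.4 and 65.6 CPM at 0.2 μM and at 24.3 CPM at 0.34 μM. Its libraries thus fell into 3 low and 2 high values, the high ones being the second library of DMSO and the second library of 0.2 μM. The log2 fold change was 0.20 (SE 0.50, edgeR quasi-likelihood adjusted p = 0.825), and it was -0.46 without the second 0.2 μM library. CLK4, the relative of CLK1, was at 6.83 and 7.60 CPM in DMSO and at 7.66, 12.9 and 8.02 CPM after doxorubicin. The log2 fold change of 0.40 (SE 0.29, edgeR quasi-likelihood adjusted p = 0.405) was the largest above 0 of all members, and 1 library stood well above the rest. CLK2 was at 33.8 to 44.9 CPM and CLK3 at 37.2 to 44.7 CPM in all libraries, with log2 fold changes of 0.11 (SE 0.17, edgeR quasi-likelihood adjusted p = 0.717) and -0.13 (SE 0.15, edgeR quasi-likelihood adjusted p = 0.601).

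The question of dose was addressed in a fit of 3 conditions, in which the lone 0.34 μM library is assumed to vary like the others. Both doses were compared with the same DMSO libraries. At 0.2 μM, 32 of 38 members had a log2 fold change below 0, with a median of -0.48, and at 0.34 μM 33 had, with a median of -0.66. None passed the threshold of 0.01 in edgeR at either dose, where 1.21% and 0.627% of all genes did, and 17 members had an unadjusted p under 0.05 at each dose, against 19.3% of all genes at 0.2 μM and 17.8% at 0.34 μM. DESeq2 called 9 members at 0.2 μM and 6 at 0.34 μM, against 6.58% and 5.61% of all genes. HNRNPA2B1 had log2 fold changes of -1.24 and -1.51 at the lower and the higher dose, HNRNPD of -1.25 and -1.41 and TRA2B of -1.15 and -1.30.

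Between the doses themselves none of the 38 members differed at 0.01 in edgeR, where 0% of all genes did. None had an unadjusted p under 0.05, against 0.155% of all genes, and DESeq2 called none of the members or of all genes. The log2 difference between 0.34 and 0.2 μM ran from -0.87 in CLK1 to 0.064 in HNRNPH2, with a median of -0.16. Against the first 0.2 μM library alone the members of the 0.34 μM library differed by a median of -0.048, and against the second by -0.29. The second 0.2 μM library was the highest of the treated libraries in 31 of 38 members, and the lowest in 4, where it was so in 45.7% and 40.8% of all genes. The part of that library in the difference between the doses was not tested.

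Genes of the same process outside the members were taken from 6 lists, compiled from general knowledge and holding 92 genes, of which 89 were tested. The log2 fold change was below 0 in 77 of them, or 86.5%, against 81.6% of the members tested. All 3 doxorubicin libraries lay below both DMSO libraries in 55, or 61.8%, against 60.5% of the members and 23.4% of all genes. They lay above both in 6 genes, or 6.74%, against 24.3% of all genes. Of the 89 genes, 2 passed as lower, or 2.25% against 2.73% of all genes. None passed as higher in edgeR, where 3 had a positive change at an unadjusted p under 0.05 and DESeq2 called 1 higher. Of all 14187 genes tested, 2159 were higher at that unadjusted p, and DESeq2 called 6.46% of the genes higher. The 2 genes were SNRPD1, a core Sm protein of the spliceosomal snRNPs, and KHDRBS3, a STAR family regulator of exon choice. SNRPD1 was at 91.9 and 82.9 CPM in DMSO and at 29.3, 43.0 and 28.8 CPM after doxorubicin, a log2 fold change of -1.38 (SE 0.21, edgeR quasi-likelihood adjusted p = 0.00996). KHDRBS3 was at 26.4 and 27.2 CPM in DMSO and at 10.9, 13.4 and 12.2 CPM after doxorubicin, a log2 fold change of -1.14 (SE 0.17, edgeR quasi-likelihood adjusted p = 0.00905). In both genes the groups lay well apart.

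The list of hnRNP proteins under other symbols, such as PTBP1, also holds other RNA-binding proteins, such as ELAVL1 and KHSRP. Its median log2 fold change was -0.61 over 14 genes, 12 of them below 0 and none called. Of these, 8 were lower and 1 higher at an unadjusted p under 0.05 in edgeR, and DESeq2 called 7 as lower, where 15.6% of all genes were lower at that unadjusted p and 7.85% were called lower by DESeq2. The SR protein kinases and the import receptor TNPO3 had a median of -0.50 over 5 genes, with none called in edgeR or DESeq2 and 3 lower at an unadjusted p under 0.05. The 15 SR-related proteins had a median of -0.42, all below 0 and none called, with 7 at an unadjusted p under 0.05 and 4 called by DESeq2. The median was -0.34 over 30 core spliceosome genes, 26 of them below 0 and 1 called, with 11 lower and 1 higher at an unadjusted p under 0.05 and 5 called lower by DESeq2. It was -0.23 over 13 tissue-type regulators, 11 of them below 0 and 1 called, with 5 lower and 1 higher at an unadjusted p under 0.05 and 3 lower and 1 higher by DESeq2. The nonsense-mediated decay genes had a median of -0.14 over 12 genes, the nearest to that of all genes among these 6 lists, 8 of them below 0 and none called, with 4 lower at an unadjusted p under 0.05 and 2 called by DESeq2.

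**Figure D4:**
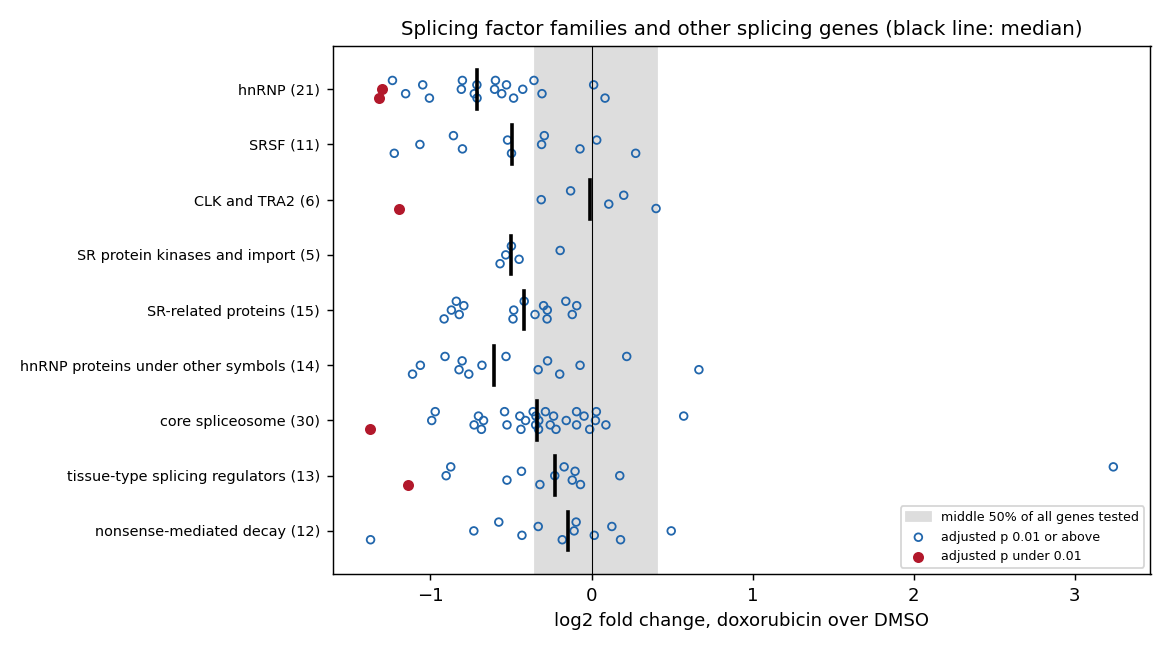
Log2 fold change of each gene tested, doxorubicin over DMSO, in the 3 member families and in the 6 other splicing lists, with the number of genes tested in brackets and the median as a black line. Filled red points passed an adjusted p of 0.01 in edgeR, and the grey band is the middle 50% of all genes tested, from -0.35 to 0.41, in which the CLK and TRA2 median of -0.011 lies while the hnRNP median of -0.71 lies below it.

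The promoters of the members were searched for short motifs to describe what the members share in sequence. RefSeq on GRCh38.p14 gave 51 transcript starts for 35 of the 38 members tested, and the comparison was with 15131 starts of 10362 genes tested. The 250 bases before each start were read on both strands. The CCAAT box (CCAAT) lay in 43.1% of member starts and 32.8% of all starts, the GC box (GGGCGG) in 62.7% and 61.9% and the TATA box (TATAAA) in 11.8% and 6.04%. An E2F-type sequence (TTTNNCGC) lay in 17.6% and 8.14%, which is 9 of 51 member starts, 7 of them of hnRNP genes. The CHR element (TTTGAA) lay in 7.84% and 9.21% and an ETS sequence (CCGGAAG) in 9.80% and 13.3%. The CRE (TGACGTCA) and the YY1 sequence (AAGATGGCG) lay in no member window, and in 2.45% and 1.02% of all. These letters can overlap each other, several starts belong to 1 gene, and a match is a description and not a site.

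By family, a CCAAT box lay in 18 of 31 hnRNP starts, 3 of 13 SRSF starts and 1 of 7 CLK and TRA2 starts. The median GC content of the windows was 64.8% for members and 64.4% for all genes. The window of HNRNPA2B1 faces the start of CBX3, a heterochromatin protein gene on the opposite strand 697 bases away. Other members also face such a start, as HNRNPD does that of HNRNPD-DT at 577 bases and CLK3 that of CLK3-AS1 at 44 bases. Levels of those other neighbours are not given here, so CBX3 cannot stand for such pairs. CBX3 was at 199 and 262 CPM in DMSO and at 121, 153 and 118 CPM after doxorubicin, a log2 fold change of -0.82 (SE 0.19, edgeR quasi-likelihood adjusted p = 0.0366).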

How the data were processed

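Poly-A RNA of 5 libraries was sequenced from a stranded kit. The authors mapped reads to hg38 with STAR and deposited raw counts per gene, made with featureCounts (Rsubread) on iGenomes gene models. The strand setting, the handling of reads with several hits and the tool versions were not given in the sources used here. A second table that the authors deposited holds their own comparison (mean signal, log2 fold change, score and p-values) and was not used.

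Counts were fitted in R 4.3.3 with edgeR 4.0.16 (quasi-likelihood test, TMM, default filter with a minimum count of 10), 3 doxorubicin against 2 DMSO libraries. The filter kept 14187 of 26485 genes and 38 of 43 members, and calls were made at 0.01 after Benjamini-Hochberg adjustment. Standard errors are the absolute log2 fold change over the root of F. DESeq2 1.42.0, limma voom 3.58.1, RLE scaling, no filter, a threshold of 0.05, a replicate block and leaving out each library were alternatives. The fit was also run on simulated counts with known changes. Its outcome is not given here, so nothing about the recovery of changes can be read from it. Lengths are of GENCODE canonical transcripts, and coordinates and promoters of RefSeq on GRCh38.p14. Of the members, 18 overlap another annotated gene. Depth limits the precision of low counts, and no interval beyond the spread between libraries is given.

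Named with full statistics are members past the threshold, CLK1 to CLK4, TRA2A, TRA2B, the 3 highest per length in each of the hnRNP and SRSF families, and the 3 largest rises and falls. Other members were described after their values were seen. The members, lists and pairs were chosen with earlier results of these data known.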

Additional observations from a re-analysis of the deposited data

How the results depend on the processing

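Of the members, 3 were called at an adjusted p of 0.01 in edgeR. The count was 16 with DESeq2, 9 with no filter on low counts, 16 at a threshold of 0.05, and 0 without each of the 5 libraries in turn. It was 3 with limma voom and with RLE scaling. Over the members that overlap no other gene or copy, a check added after seeing the data, it was also 3. The called genes are themselves among those members, so leaving out the others could not change the count. Of the other splicing genes 2 were called, against 22 with DESeq2, 8 with no filter, 21 at 0.05 and 0 to 1 without each library. In the 0.2 μM contrast the count of 0 members became 9 with DESeq2 and 3 at 0.05, and in the 0.34 μM contrast 6 with DESeq2. Sample titles number only the second DMSO and the second 0.2 μM library, and the first ones were numbered 1 here. Pairing the DMSO and 0.2 μM libraries by replicate thus rests on a number alone, with 2 pairs. The differences between their replicates correlated at 0.50 over all genes tested and 0.27 over the members. With a replicate block on these 4 libraries 9 members and 5 other splicing genes were called, and without the block on the same libraries 0 and 0. The shares of all genes called with the block and with no filter on low counts are not given here. The counts under these settings therefore cannot be set against them.

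Without each library, the median log2 fold change of the CLK and TRA2 genes lay between -0.29 and 0.032. The log2 fold change changed sign in CLK1 (-0.46 to 0.63), CLK2 (-0.049 to 0.25), SRSF5 (-0.096 to 0.13), SRSF6 (-0.22 to 0.036), SRSF11 (-0.61 to 0.025), HNRNPH2 (-0.17 to 0.36) and HNRNPLL (-0.089 to 0.097), none of which was called. SRSF6 was also at 0.0013 without the block. The causes were not tested. RLE scaling shifted the scaling of doxorubicin against DMSO by -0.0069 (log2). The lone 0.34 μM library and the spread of 2 DMSO libraries limit the tests.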
